A study of Mus musculus with 36 samples.

Results

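Arhgap23 codes for a GTPase-activating protein. Proteins of the ARHGAP family speed up GTP hydrolysis by small GTPases that govern the actin cytoskeleton, and so turn these switches off. TET1, an enzyme whose gene was disrupted in the study, oxidises 5-methylcytosine (5mC) at CpG sites, a step on the way to unmethylated cytosine. CpG-dense stretches at gene starts are usually unmethylated, whereas CpGs in gene bodies are usually methylated. The gene (ENSMUSG00000049807.16) lies on the forward strand of chromosome 11, from 97415533 to 97502402 in mm10, and the transcript used here has 24 exons. All CpGs in the gene and 5 kb on each side were taken, which gave 592 CpGs listed in any library, of 3493603 autosomal CpGs in the series. The gene was chosen by its methylation difference between KO and WT embryos in these libraries, so every KO against WT value below is a description and carries no support of its own.

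Single mouse brains at E11.5 were sequenced by RRBS (reduced representation bisulfite sequencing) after oxidative bisulfite treatment, which leaves 5mC alone to read as a methylated base. All embryos were of the strain 129S6.cg Tet1 tm1Koh, in which, as the study states, a cassette inserted at the first coding ATG disrupts Tet1, and all came from Tet1 HET dams. The study still detected a short Tet1 transcript in KO brains at E11.5, and no TET1 protein in either WT or KO brains. The 3 genotypes were WT (both Tet1 alleles intact), HET (1 disrupted) and KO (both disrupted), and the dams had been kept on 30, 3 or 0.1 ppm folic acid (FA), which the study calls excess, control and depleted. These 3 custom diets all held the antibiotic succinyl sulfathiazole. On 30 ppm there were 3 WT, 5 HET and 6 KO embryos, on 3 ppm 4 WT, 3 HET and 5 KO embryos, and on 0.1 ppm 2 WT, 2 HET and 5 KO embryos, 35 in all. HET replicate 2 of 0.1 ppm, the shallowest of 36 libraries, was left out by the study and entered only as an alternative. By the number in their names, read here as the litter, the embryos came from 12 litters, 4 per diet, and littermates share a dam. A whole brain mixes many cell types, and a level between 0 and 100% cannot tell a change in every cell from a change in the mix of cells.

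Depth ran from 23.2 to 197 M CpG calls in a library, a mean coverage of 10.9 to 61.5 reads per listed CpG. No listed CpG had fewer than 2 reads, so this mean leaves out shallower CpGs. A CpG entered with at least 5 reads. By this measure a library had between 287 and 518 CpGs in the gene and its flanks, 245 CpGs were covered in all 35 embryos, and these were 15.4% of the 1590 CpGs of the reference there. RRBS reads only fragments near MspI and TaqI sites, so most of the gene was not measured.

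The Tet1 gene gave a check on the labels. At 3 CpGs of Tet1 (chromosome 10, positions 62884019, 62884999 and 62885446), selected on their KO minus WT difference of at least 50 points, the pooled level was between 12.8 and 30.8% in 7 WT libraries, between 39.3 and 72.1% in 11 HET libraries and between 81.0 and 96.1% in 15 KO libraries. Against their labels, 3 libraries lay within the HET range. They were labelled KO replicate 1 of 30 ppm (50%, 95% Wilson interval 37.5 to 62.5), WT replicate 2 of 30 ppm (47.4%, 39.1 to 55.8) and WT replicate 2 of 0.1 ppm (51.7%, 39.3 to 63.8). The study's own list of embryos gives the first of these embryos as HET and the other 2 as WT. Groups here follow the labels, and the main results that rest on these 3 libraries are given with and without them. Where no second value is given, the libraries are included, which matters most for the KO values of 30 ppm.

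Most of the measured clusters of Arhgap23 were either unmethylated or highly methylated in every genotype, and the largest differences between KO and WT lay in a short stretch of exon 12. The borders of this gain were drawn on 316 CpGs, those with 5 reads in 20 or more of the 25 WT and KO embryos and in each diet of both. The KO minus WT difference, taken as the mean of the differences on the 3 diets, was at least 20 points at 14 of these CpGs, and 12 of the 14 followed each other without a break. They ran from 97463506 to 97463670, 165 bp, 47973 bp from the gene start, inside coding exon 12 (97463384 to 97463701). No CpG of the 316 was lower in KO by 10 points or more, and the lowest difference was -3.997 points. The 12 CpGs held 36.1% of the difference summed over the 316. The other 304 CpGs had a median difference of 1.92 points, with 240 of them above 0 and 33 at 10 points or more.

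**Figure D1:**
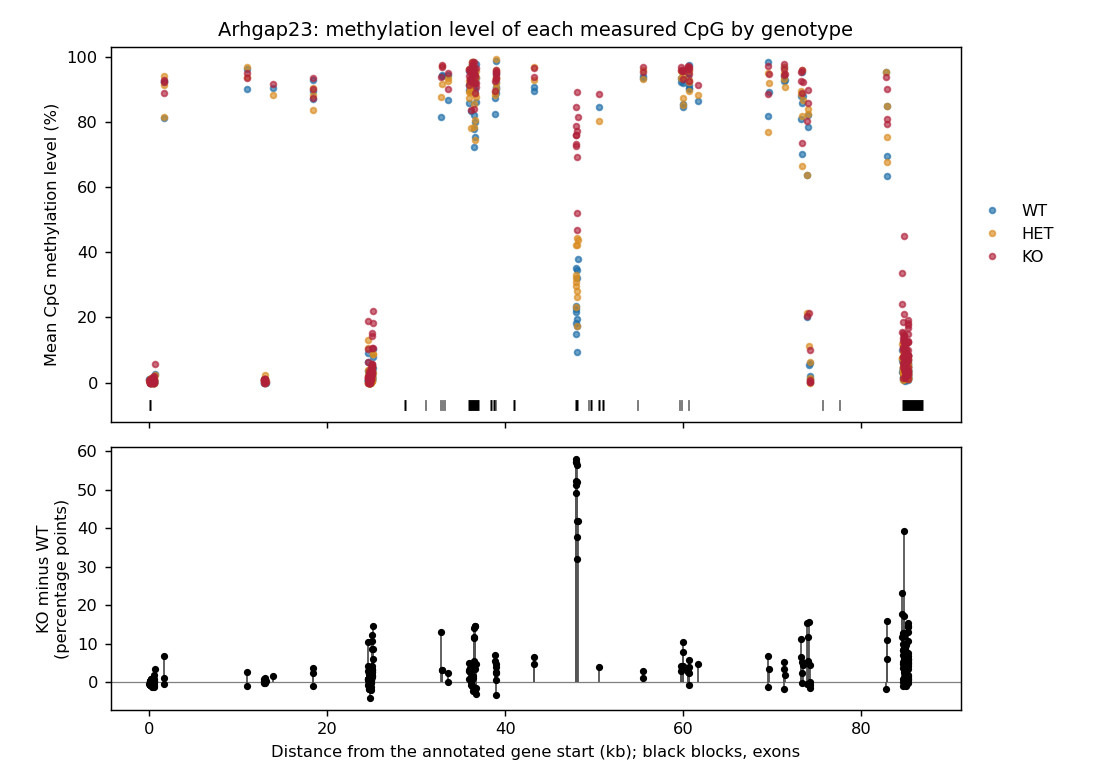
Top, mean methylation level (%) of each of 316 CpGs in WT, HET and KO embryos against the distance from the gene start (kb), with exons as black blocks. Bottom, KO minus WT difference in percentage points. The 12 CpGs at 48 kb stand between 32.0 and 57.9 points, and the 1 other point above 30 lies in the last exon, at 39.2 points.

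The reference sequence of exon 12 shows what was and was not measured. It is printed from the first MspI site of the exon to the end of the exon (mm10, chr11:97463472-97463701, forward strand, all coding), with the 12 CpGs of the stretch in capitals.
exon 12: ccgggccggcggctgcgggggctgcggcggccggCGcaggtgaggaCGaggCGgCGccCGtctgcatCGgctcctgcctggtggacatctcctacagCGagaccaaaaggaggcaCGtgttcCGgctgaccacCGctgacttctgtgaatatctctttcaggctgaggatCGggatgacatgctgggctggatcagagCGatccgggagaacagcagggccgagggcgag
The exon holds 36 CpGs in 318 bp, with a ratio of observed to expected CpGs of 0.988 against 0.25 over the whole gene. MspI cuts at ccgg, which occurs at 97463472, 97463477, 97463502, 97463593 and 97463674, so the 12 CpGs lie in 2 neighbouring fragments of 91 and 81 bp. TaqI sites (tcga) do not occur in the printed sequence. Reads of 1 fragment share their molecules, so CpGs of 1 fragment are not independent.

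Beyond the stretch the borders were set by coverage and not by a measured return to the WT level. On the left, 21 CpGs of the exon lie before the stretch, and 5 of them had 5 reads in at least 1 embryo. These 5, from 97463481 to 97463503, were covered in 11 to 19 of the 25 KO and WT embryos and were higher in KO by 37.6 to 57.9 points. The next CpG to the left with full coverage was 97458738 in intron 11, 4768 bp away, at 89.4% in WT and 93.7% in KO. On the right, the next was 97466122 in a later exon, 2452 bp away, at 84.5% in WT and 88.5% in KO. Between these points lie 71 reference CpGs on the left and 34 on the right. The stretch had the same 12 CpGs with a threshold of 10 or 30 points, a coverage of 10, on 3 or 0.1 ppm alone and without the 3 libraries. On 30 ppm alone it ended at 97463594, with 9 CpGs.

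WT embryos were low at this stretch, HET embryos somewhat higher and KO embryos far higher. An embryo's value is the mean level of the 12 CpGs, all of which had at least 5 reads in all 35 embryos. The WT embryos of 30 ppm were at 22.3, 32.5 and 32.9%, with 32.5% in the library labelled WT replicate 2. The 4 WT embryos of 3 ppm were at 17.2, 19.7, 20.2 and 20.4%. The WT embryos of 0.1 ppm were at 23.95 and 26.1%, the lower of them the library labelled WT replicate 2. The 3 ppm embryos were thus the lowest WT embryos, with no overlap with either other diet.

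The 5 HET embryos of 30 ppm ranged from 28.6 to 35.8%, with 32.0, 33.8 and 35.16% between. Those of 3 ppm were at 28.3, 31.3 and 33.96%, and those of 0.1 ppm at 30.0 and 38.9%. HET embryos overlapped WT embryos on 30 ppm and on no other diet.

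The KO embryos of 3 ppm were at 72.7, 74.0, 74.9, 80.9 and 82.5%, and those of 0.1 ppm at 72.1, 74.3, 74.96, 80.9 and 82.7%. On 30 ppm 5 KO embryos lay at 65.7, 69.5, 70.4, 73.6 and 84.8%, and the library labelled KO replicate 1, an embryo the study lists as HET, at 34.8%, inside the range of the HET embryos (28.3 to 38.9%). Over the 3 diets WT was at 23.9% ± 5.61 (SD, n = 9), HET at 32.8% ± 3.37 (n = 10) and KO at 73.0% ± 11.5 (n = 16). Without the 3 libraries WT was at 22.7% ± 5.28 (n = 7) and KO at 75.6% ± 5.55 (n = 15). The lowest of these 15 KO embryos was at 65.7% and the highest HET embryo at 38.9%, so KO overlapped neither HET nor WT. WT (up to 32.9%) and HET (from 28.3%) overlapped.

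**Figure D2:**
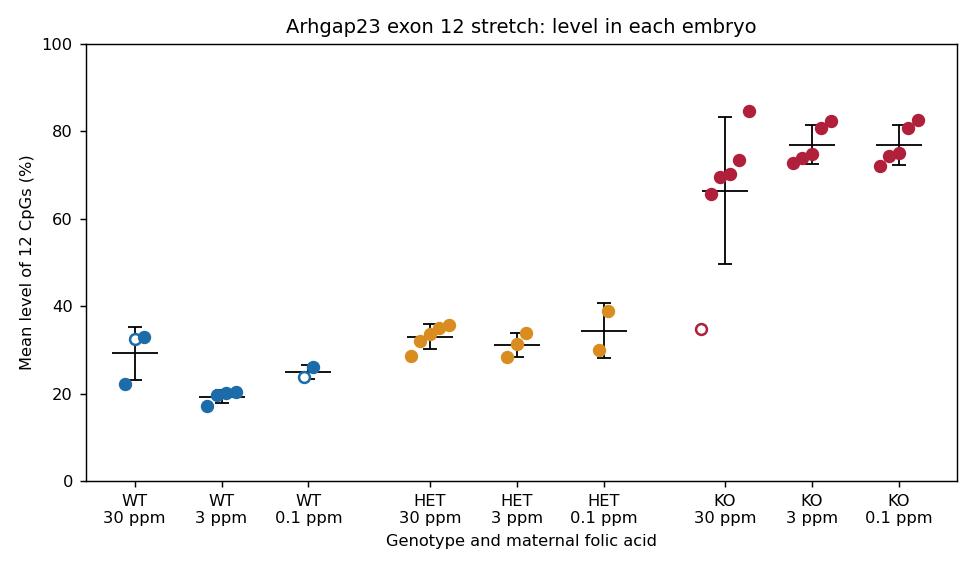
Mean methylation level (%) of the 12 CpGs of exon 12 in each of 35 embryos by genotype and maternal folic acid, with group mean and SD as lines. Open circles are the 3 libraries whose Tet1 values went against their labels. KO embryos sit between 65.7 and 84.8% apart from the open circle at 34.8%, and WT and HET embryos between 17.2 and 38.9%.

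The reads behind these values overlapped between genotypes once scaled to depth, with the lowest median in KO. The calls over the 12 CpGs, scaled to 1e6 CpG calls of the library, had a median of 12.1 in WT (9.50 to 14.9), 11.4 in HET (9.36 to 14.6) and 10.1 in KO (6.43 to 14.3). In number, an embryo had from 222 to 1904 calls there. For the KO embryo with the fewest, replicate 1 of 0.1 ppm, the pooled share of 79.7% had a 95% Wilson interval of 74.0 to 84.5%. Such intervals cover counting error only, and treat calls of 1 read as separate.

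KO minus WT was 37.2 points on 30 ppm, 57.6 on 3 ppm and 51.95 on 0.1 ppm. The mean of the 3 was 48.9 points, and 51.2 without the 3 libraries, with 45.1 on 30 ppm, 57.6 on 3 ppm and 50.9 on 0.1 ppm. Within litters, KO embryos were higher than their WT littermates in 8 of 8 litters that held both, by 32.8 to 56.9 points. The mean difference between these littermates was 48.1 points, and 53.0 points without the 3 libraries.

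At each of the 12 CpGs the mean was lowest in WT, higher in HET and highest in KO. The lowest CpG in WT was 97463587, at 9.50% ± 5.69 in WT (n = 9), 17.2% in HET and 46.8% ± 11.7 in KO (n = 16). The highest in WT was 97463670, at 37.97% in WT, 43.9% in HET and 81.3% in KO. KO was highest at 97463594, the CpG of the MspI site between the 2 fragments, at 89.0%, against 32.1% in WT. The smallest gain was at 97463605, with 19.5% in WT, 28.1% in HET and 52.0% in KO. HET was above WT at 12 of 12 CpGs, by 4.48 to 12.2 points as a mean of the diets. Across the 12 CpGs, Pearson's r between the mean levels of WT and HET was 0.982, and between WT and KO 0.729. This is a description, since the CpGs share reads and sequence.

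Both fragments showed the difference. The 8 CpGs of the left fragment were at 20.4% ± 5.86 in WT, 29.3% ± 2.57 in HET and 72.1% ± 13.5 in KO, and the 4 CpGs of the right fragment at 31.03% ± 7.35, 39.6% ± 7.05 and 74.9% ± 9.42. KO minus WT was 51.9 points in the left fragment and 42.99 in the right. HET minus WT was 8.35 points in the left and 8.33 in the right. With the 3 libraries left out, KO minus WT was 53.3 and 47.0 points and HET minus WT 7.34 and 10.9, and over the single CpGs KO minus WT ran from 35.17 to 61.45 points.

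**Figure D3:**
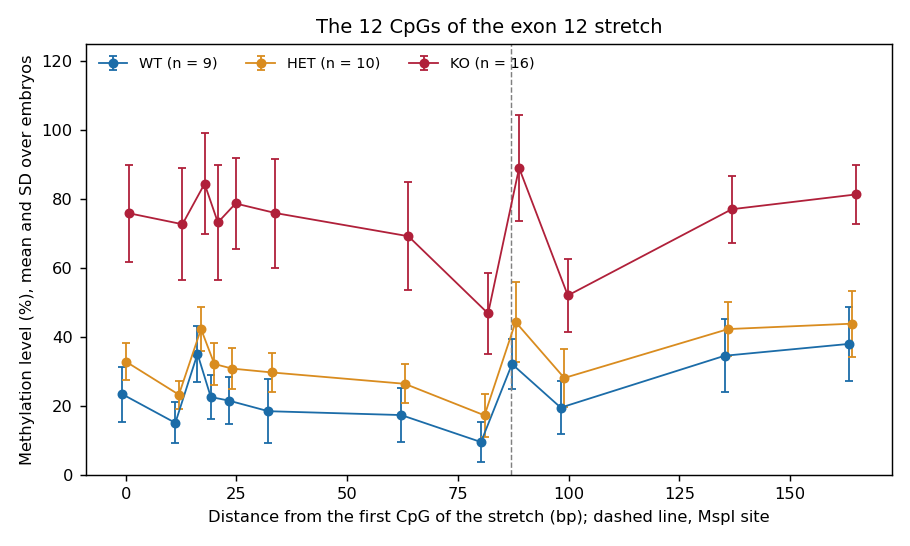
Methylation level (%) of the 12 CpGs of exon 12 as mean and SD over WT, HET and KO embryos, against the distance (bp) from the first of them. KO is above HET and HET above WT at every CpG. The dashed line is the MspI site that separates the 2 fragments.

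HET embryos had no part in the choice of the gene and of the 12 CpGs, but the WT embryos had, and their low level there is part of what was chosen, so HET against WT is also given as a description, with no test. The level of HET was above that of WT by 8.34 points as the mean of the 3 diets, and by 8.53 points without the 3 libraries. On 3 ppm the difference was 11.8 points, and 3 of 3 HET embryos exceeded all WT embryos. On 30 ppm it was 3.802 points, with 3 of 5 above all WT embryos, and 5.44 points with the library labelled WT replicate 2 left out. With WT replicate 1 of 30 ppm left out instead, the WT embryos left were at 32.5 and 32.9%, against a HET mean of 33.06%. The mean over the 3 diets was then 7.18 points. On 0.1 ppm the difference was 9.40 points, with 2 of 2 HET embryos above all WT embryos. It was 8.31 points with WT replicate 2 left out, which leaves 1 WT embryo. Among litters with both genotypes HET was above WT in 4 of 5, from -3.99 to 14.0 points, and the litter with the negative value holds the library labelled WT replicate 2 of 30 ppm. The mean difference between littermates was 7.23 points, and 10.03 points without the 3 libraries.

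KO embryos had helped to choose the gene and the 12 CpGs, so KO against HET is given as a description, with no test. The level of KO was above that of HET by 40.6 points as the mean of the diets, and by 42.7 points without the 3 libraries. By diet the difference was 33.4 points on 30 ppm, or 39.7 without the library labelled KO replicate 1, and 42.55 points on 0.1 ppm. On 3 ppm the means were 77.0 and 31.2%. A total of 15 of 16 KO embryos lay above every HET embryo, all but the library labelled KO replicate 1 of 30 ppm.

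Maternal FA made no difference that passed the adjusted threshold at this stretch in any genotype. Most of these tests could not pass it alone. On 30 and 0.1 against 3 ppm the smallest exact p that the group sizes allow was 0.0286 and 0.0667 in WT and 0.0179 and 0.1 in HET. In KO on 0.1 ppm it was 0.00794. The lack of a pass in WT and HET thus cannot show that diet made no difference. In WT the level was higher on 30 than on 3 ppm by 9.89 points, with 3 of 3 embryos above all 4 of 3 ppm (exact p = 0.0286, the smallest possible, adjusted p = 0.2 over 7 tests of diet and phenotype). Without the library labelled WT replicate 2 it was 8.25 points (exact p = 0.0667, again the smallest possible). These tests permute embryos, although the diet was given to dams. Over litter means the difference in WT was 10.08 points (exact p = 0.1, the smallest possible). On 0.1 against 3 ppm WT differed by 5.67 points, with 2 of 2 above (exact p = 0.0667, the smallest possible, adjusted p = 0.233), and by 6.76 points without the library labelled WT replicate 2, with 1 embryo left. In KO the difference of 30 from 3 ppm was -10.6 points (exact p = 0.186, adjusted p = 0.434), and -4.22 points without the library labelled KO replicate 1 (exact p = 0.278). Over litter means it was -9.80 points (exact p = 0.0286, the smallest possible), and -3.56 points without that library (exact p = 0.429). KO embryos of 0.1 and 3 ppm had the same mean, 77.0% ± 4.56 (n = 5) and 77.0% ± 4.399 (n = 5). In HET the differences were 1.87 points on 30 ppm (exact p = 0.393) and 3.26 points on 0.1 ppm (exact p = 0.5, with 0.1 as the smallest possible).

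The steps between genotypes hold WT and KO values that helped to choose the gene, so their differences between diets are a description, with no test. HET minus WT was smaller on 30 than on 3 ppm by 8.01 points, and by 6.37 points without the 3 libraries. KO minus HET was smaller on 30 than on 3 ppm by 12.4 points, and by 6.10 points without the 3 libraries. For 0.1 against 3 ppm the steps differed by -2.415 points (HET minus WT) and -3.254 points (KO minus HET). Nothing about diet is read from these values.

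The phenotype of KO embryos did not go with a detectable difference. The KO group held 5 embryos with an NTD (neural tube defect), at 77.9% ± 5.42 (73.6 to 84.8%), and normal embryos at 74.3% ± 5.47 (n = 7, 65.7 to 80.9%). As the mean of the differences within diets NTD embryos were higher by 3.18 points (exact permutation p = 0.382, adjusted p = 0.55). KO embryos helped to choose the gene, and this p does not allow for that choice. By diet, NTD and normal embryos were at 79.2 and 68.0% on 30 ppm and at 78.5 and 77.9% on 0.1 ppm. On 3 ppm the 1 NTD embryo was lower, at 74.0% against 76.2%. No litter held both kinds, so litter and phenotype cannot be told apart. The 4 KO embryos labelled inHB, listed by the study with a brain malformation, had a median of 70.8%, the library at 34.8% among them. The others were at 69.5, 72.1 and 82.5%. WT replicate 2 of 0.1 ppm and HET replicates 3 and 4 of 30 ppm were labelled inHB too. Levels by the sex in the labels overlapped in every genotype: 20.2 to 32.5% in 5 female and 17.2 to 32.9% in 4 male WT embryos, and 65.7 to 82.5% in 8 male against 34.8 to 84.8% in 8 female KO embryos.

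Outside exon 12 the gene was covered in 18 further clusters of CpGs, each more than 1 kb from the next. In 4 clusters WT was under 20%, in 13 above 75%, and in 1 between. The 13 methylated clusters, in introns and exons, had mean levels of 78.2 to 94.03% in WT and 86.0 to 95.9% in KO. In the 14 clusters with CpGs covered in all embryos the KO minus WT difference was between 0.276 and 7.81 points, with a median of 3.71, and without the 3 libraries between 0.202 and 9.60 points, with a median of 4.76. Over all 42245 tiles of 1 kb tested on every diet, the median KO minus WT difference was 3.69 points, with 90.1% of tiles above 0.

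The start of Arhgap23 was unmethylated in all genotypes. The cluster from 97415559 to 97416151, which spans the 5′ UTR, the first coding bases and the start of intron 1, held 46 CpGs. Over the 37 covered in all embryos it was at 0.523% ± 0.236 in WT (n = 9), 0.581% ± 0.207 in HET (n = 10) and 0.759% ± 0.429 in KO (n = 16). A KO minus WT difference of 10 points was reached by 0 of its 46 CpGs.

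A CpG-dense cluster in intron 1, from 97440092 to 97440692, had a low level in all genotypes. Its 68 CpGs include 4 that gained at least 10 points, 1 on the left and 3 on the right. The cluster was divided at these CpGs, so that its middle by construction holds none of them. In the middle, over 25 of 54 CpGs that were covered in all embryos, it was at 1.42% ± 0.404 in WT and 2.62% ± 1.11 in KO. The 12 CpGs of the right end were at 3.34% ± 0.878 in WT, 3.31% ± 1.39 in HET and 9.57% ± 2.83 in KO. The right end is printed to show where they lie (mm10, chr11:97440532-97440703, forward strand), with the 3 CpGs of at least 10 points in capitals.
intron 1: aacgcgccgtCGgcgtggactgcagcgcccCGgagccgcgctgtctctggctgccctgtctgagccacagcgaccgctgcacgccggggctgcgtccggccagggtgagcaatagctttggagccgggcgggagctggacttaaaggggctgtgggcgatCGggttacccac
The last of the 3, 97440692, was at 7.96% ± 5.60 in WT, 8.89% in HET and 22.1% ± 10.4 in KO. Over the 39 CpGs covered in all embryos the cluster was at 2.33% ± 0.478 in WT, 2.56% ± 0.741 in HET and 5.37% ± 1.14 in KO. All KO embryos but 1 exceeded every WT embryo, and that 1, at 2.16%, was labelled KO replicate 1 of 30 ppm.

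The last exon holds a second CpG-dense cluster, from 97500155 to 97500856, with 86 CpGs. It lies in coding sequence of Arhgap23 and around the start site of 4933428G20Rik (ENSMUSG00000047988.1), a gene on the reverse strand from 97490783 to 97500340 that is the only other annotated gene in the interval. Over 85 CpGs the cluster was at 3.25% ± 0.969 in WT, 4.03% ± 1.44 in HET and 9.08% ± 1.58 in KO, and 15 of 16 KO embryos exceeded every WT embryo. The same library was again below, at 4.31%. Divided in the same way at its 16 CpGs that gained at least 10 points, the 48 CpGs of its middle were at 2.80% in WT and 6.03% in KO, against 3.91 and 13.8% at the left end and 3.72 and 11.4% over 12 of 13 CpGs at the right end. Leaving out the 3 libraries, the values of the middle were 2.79 and 6.19%, of the left end 3.15 and 14.4% and of the right end 3.78 and 11.8%.

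The CpG with the largest difference outside exon 12, 97500344, lies 4 bp from the start site of 4933428G20Rik. It is shown with its neighbours (mm10, chr11:97500341-97500399, forward strand), with the 4 CpGs that gained at least 10 points in capitals.
last exon: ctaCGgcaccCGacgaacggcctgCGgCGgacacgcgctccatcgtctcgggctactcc
At 97500344, the first of the 4, WT was at 5.82% ± 5.02 (n = 9, 0 to 13.0%), HET at 11.9% ± 6.12 (n = 10, 3.85 to 24%) and KO at 44.98% ± 13.7 (n = 16, 13.5 to 63.6%). KO embryos of 30 ppm had a mean of 34.6%, those of 3 ppm 53.6% and those of 0.1 ppm 48.7%. All 16 KO embryos were above every WT embryo, and the lowest was the library labelled KO replicate 1 of 30 ppm. When the 3 libraries were left out, KO was at 47.1% ± 11.2 and WT at 4.52% ± 4.73. With 10 to 37 reads at this CpG in a KO embryo, single values are coarse. The CpG 97500351, 7 bp away, reached 14.6% in KO against 1.62% in WT.

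**Figure D4:**
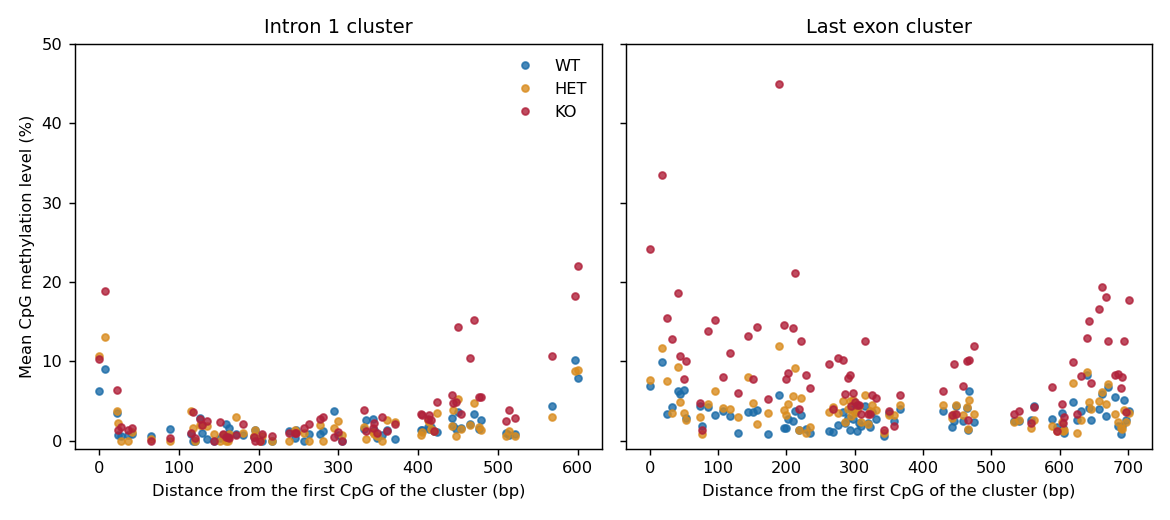
Mean methylation level (%) of each CpG in WT, HET and KO embryos in the intron 1 cluster and the last exon cluster, against the distance (bp) from the first CpG. In both clusters most KO points lie under 10%, and the single KO point at 44.98% is 97500344.

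Tiles of 1 kb over all autosomes put these values against the rest of the genome. A tile was tested with at least 3 CpGs of 5 reads in every embryo compared, and called at an adjusted p under 0.05 in the quasi-binomial test with a difference of at least 10 points. The test shrinks dispersions as limma does. Of 6 to 12 tiles of Arhgap23 tested in a comparison, the tile with the stretch (97463001 to 97464000) was called in 7 of 16 comparisons, and in the other 9 no tile of the gene was called.

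HET against WT holds the WT values that helped to choose the gene, so its calls for the gene are a description from which nothing is read. The tile was called on 3 ppm, where 3 HET embryos had 32% ± 3.74 and 4 WT embryos 19.3% ± 1.18, 12.7 points apart. It was 1 of 9 tiles of the gene, with 0.812% of all tiles called. On 30 ppm the quasi-binomial test called 0 of 6 tiles of the gene and 0% of all 64629 tiles, with 3668 of them at an unadjusted p under 0.05 and 1 of the 6. The exon 12 tile differed by 3.85 points there. With the library labelled WT replicate 2 left out, 0.943% of all tiles were called, and the exon 12 tile differed by 5.67 points, under the 10 points of a call. With WT replicate 1 left out instead, 0.0327% of all tiles were called, and the exon 12 tile differed by 0.252 points. On 0.1 ppm the same test called 0 of 10, with 1 of the 10 at an unadjusted p under 0.05, and 0.095% of all tiles. The exon 12 tile differed by 7.40 points. With WT replicate 2 left out 1 WT embryo remains, assumed to vary like the 2 HET embryos. In that fit 0.418% of all tiles were called, and the exon 12 tile differed by 7.56 points.

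KO against HET holds the KO values that chose the gene, so its calls too are a description. The exon 12 tile was called on every diet, with 32.6 points on 30 ppm, 45 on 3 ppm and 42.6 on 0.1 ppm. The share of all tiles called was 4.37% on 30 ppm, 7.81% on 3 ppm and 6.8% on 0.1 ppm, and the tiles of the gene called were 1 of 9, 1 of 9 and 2 of 11. Without the library labelled KO replicate 1 the share on 30 ppm was 8.87% and the exon 12 tile differed by 38.75 points. The second on 0.1 ppm was 97488001 to 97489000, in an intron, at 91.0% ± 2.01 (n = 5) against 80.2% ± 1.99 (n = 2). The last exon tile (97500001 to 97501000) was 4.35 to 4.81 points higher in KO than in HET, under the 10 points a call needs.

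For KO against WT the rule used this contrast, and the values are printed as a description. Called were 1 of 9 tiles of the gene on 30 ppm, 2 of 11 on 3 ppm and 1 of 12 on 0.1 ppm, with 5.66%, 16.3% and 11.2% of all tiles. The share on 30 ppm was 16% without the 3 libraries, 11.9% without KO replicate 1 alone, 9.10% without WT replicate 2 alone and 0.0246% without WT replicate 1, so the gap between diets in this share moves with single libraries. On 0.1 ppm it was 13.4% without the 3 libraries, in a fit of 5 KO embryos against 1 WT embryo that was assumed to vary as they do. The exon 12 tile was among the tiles called each time, with 36.5, 57.7 and 49.99 points, and with 44.4 points on 30 ppm and 50.2 on 0.1 ppm without the 3 libraries. On 30 ppm without WT replicate 1 it differed by 32.9 points and was not among the tiles called. Since these values chose the gene, nothing is read from its calls. Its mean over the diets, 48.1 points, ranked 25 of 42245 tiles, and without the 3 libraries its 50.75 points ranked 60.

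Between diets no tile of the gene was called by the quasi-binomial test. For 30 against 3 ppm the share of all tiles called was 0% in KO and 0% in WT, with 4554 and 2579 tiles at an unadjusted p under 0.05, and 0.0201% in HET. For 0.1 against 3 ppm it was 0% in KO, with 3252 at an unadjusted p under 0.05, 0.131% in WT and 0.0866% in HET. The exon 12 tile had unadjusted p under 0.05 in WT on 30 and 0.1 ppm and in KO on 30 ppm. In WT it differed by 10.1 points on 30 ppm (quasi-binomial adjusted p = 0.563) and by 8.38 points on 0.1 ppm (adjusted p = 0.0588). In KO on 30 ppm it differed by -10.9 points (adjusted p = 0.708). For WT on 0.1 ppm, other settings gave a quasi-binomial adjusted p of 0.0401 to 0.2895, with no call. With WT replicate 1 of 30 ppm left out, the tile was called in WT on 30 against 3 ppm, with 13.8 points (quasi-binomial adjusted p = 9.4e-07). In that fit 0.267% of all tiles were called. The 30 ppm group then still held the WT library whose Tet1 level, 47.4%, lay in the HET range. The cause of this call was not tested, and nothing about diet is read from it. Without the 3 libraries the differences in WT on 30 and 0.1 ppm and in KO on 30 ppm were 8.23, 7.77 and -4.80 points, with no call, and the share of all tiles called was 0.0714% for WT on 30 ppm, 0.611% for WT on 0.1 ppm, where 1 embryo was left and assumed to vary like the 4 of 3 ppm, and 0% for KO on 30 ppm. NTD against normal KO called 0.00605% of all tiles and 0 of 6 of the gene, of which the exon 12 tile alone had an unadjusted p under 0.05, with 3.64 points (quasi-binomial adjusted p = 0.806).

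**Figure D5:**
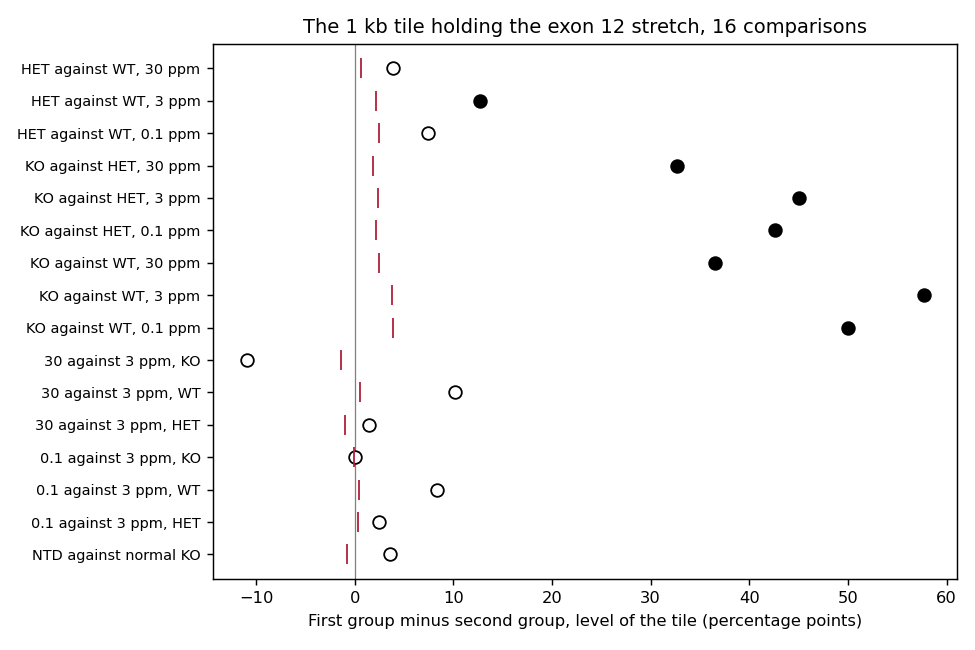
Difference in level (percentage points) of the 1 kb tile with the exon 12 stretch in 16 comparisons, the first group named minus the second. Filled circles passed the quasi-binomial test with at least 10 points, open circles did not, and red ticks are the median of all tiles tested. The 3 KO against HET points lie between 32.6 and 45, and the filled HET against WT point at 12.7.

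Other genes of the ARHGAP family were described for comparison, 30 genes of which 26 to 28 had a tested tile. In KO against WT 12 of 144 tiles in their bodies were called on 30 ppm, 25 of 140 on 3 ppm and 17 of 148 on 0.1 ppm, all of them higher in KO. These shares of 8.33, 17.9 and 11.5% stood beside 5.66, 16.3 and 11.2% of all tiles, and the median differences of 2.51, 4.46 and 3.83 points beside 2.49, 3.76 and 3.85 of all tiles. In HET against WT 0 of 146, 1 of 155 and 1 of 168 were called, both in Arhgap27, beside 0, 0.812 and 0.095% of all tiles. With the 3 libraries left out, KO against WT called 29 of 146 on 30 ppm (16% of all tiles) and 23 of 151 on 0.1 ppm (13.4%), and HET against WT called 3 of 145 (0.943%) and 1 of 178 (0.418%). Both fits on 0.1 ppm then rest on 1 WT embryo, assumed to vary like the other group. The largest difference on 3 ppm was in Arhgap27 (chromosome 11, 103356001 to 103357000), where 5 KO embryos had 62.2% ± 5.33 and 4 WT embryos 20.75% ± 4.65 (adjusted p = 1.6e-10). Arhgap25 (chromosome 6, 87466001 to 87467000) followed with 56.2% against 26.02%, and Arhgap9 (chromosome 10, 127322001 to 127323000) with 82.4% against 53.6%. On 30 ppm the tiles of Arhgap27 and Arhgap9 were called, with 34.2 and 26.1 points, and that of Arhgap25 was not, with 17.5 points. The KO group there holds the library labelled KO replicate 1. On 0.1 ppm the tiles of Arhgap25 and Arhgap9 were called, with 33.3 and 16.2 points, and this tile of Arhgap27 was not tested. On 3 ppm all 3 were below the 57.7 points of the Arhgap23 tile, which was chosen on this contrast, so nothing is read from that order.

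The genes whose tile was most like that of Arhgap23 were found by the mean absolute difference in level over the 35 embryos, among 42245 tiles. The closest was in Fos (chromosome 12, 85476001 to 85477000), 4.71 points away on average, at 23.9% in WT, 34.2% in HET and 70.0% in KO. Myo1d (chromosome 11, 80484001 to 80485000) was 4.76 points away, Hhatl (chromosome 9, 121791001 to 121792000) 5.22, Krt79 (chromosome 15, 101930001 to 101931000) 5.29 and Dido1 (chromosome 2, 180659001 to 180660000) 5.39. Arhgap23 itself was at 24.5% in WT, 33.2% in HET and 72.9% in KO on this tile measure, which pools reads. In all 6 tiles HET lay 7.10 to 10.5 points above WT, values that the selection of like tiles brings with it.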

How the data were processed

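The authors trimmed the reads with Trim Galore 0.6.10, aligned them to mm10 with Bismark 0.24.1 and removed duplicates with UMI-tools. They deposited, for each library, 1 line per CpG with the methylated fraction and the count of covering reads. The deposited positions count from 0, checked against the reference, and 1 was added. Deposited lists of differential regions (9 files) hold the authors' own comparisons and were not used. The methylated count was the fraction times the coverage.

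Levels of the stretch were compared by exact permutation tests, two-sided, with embryos permuted between diets within a genotype, or between phenotypes within diets, and Benjamini-Hochberg adjustment over these 7 tests. Genotypes at the stretch share embryos with the choice of the gene and are compared without p, and their tile calls at the gene are a description. The tests of diet in WT and KO and of phenotype in KO use these embryos too. Their p-values do not allow for the choice. Tiles of 1000 bp with at least 3 CpGs of 5 reads in every embryo and an SD of at least 2 points were tested by a quasi-binomial test with dispersions moderated as in limma, and called at an adjusted p under 0.05 and 10 points. Scripts used Python 3.11, numpy 2.4.6, scipy 1.17.1 and pandas 2.3.3, and the tile test was checked on simulated data. Coverage, thresholds, tile borders, single embryos, the litter as a block and the 3 libraries against their labels were varied. Where a tile fit left 1 embryo in a group, it was assumed to vary like the other group. The first number of the embryo name in the titles was read as the litter, which the labels do not spell out, and used to pair littermates across genotypes. Named genes were the 3 with the largest KO against WT tiles of the ARHGAP family on 3 ppm and the 5 tiles most like that of Arhgap23. A further gene list is not reported here. The gene, lists and tests were chosen with earlier results of these data known.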

Additional observations from a re-analysis of the deposited data

Results flagged for a closer look

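Over 5 groups of 4 to 6 embryos and 4 measures (the stretch, the 2 CpG-dense clusters and the CpG 97500344), 20 sets in all, 4 values stood apart from the rest of their group by Dixon's ratio (the gap to the nearest embryo over the range of the group) at its 95% critical value, which chance does in about 1 of 20. In the intron 1 cluster KO replicate 1 of 30 ppm was at 2.16% (ratio 0.759) and KO replicate 2 of 3 ppm at 7.80% (0.803). In the last exon cluster KO replicate 1 of 30 ppm was at 4.31% (0.634) and KO replicate 1 of 3 ppm at 11.4% (0.907). The library labelled KO replicate 1 of 30 ppm is the KO library whose Tet1 level lay in the HET range, from an embryo the study lists as HET. At the exon 12 stretch its ratio was 0.618, under the critical value.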

How the results depend on the processing

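Of 120 alternatives for the 7 tests at the stretch 100 kept direction and side of the threshold. The differences between genotypes stayed above 0 in 97 of 97. The borders enclosed 12 CpGs in 6 of 7 (9 on 30 ppm alone), and of 212 for counts of tiles called 197 stayed within 1.5 times. These tallies are no measure of robustness. A coverage of 10, an embryo's own CpGs and borders at 10 or 30 points left the values at the stretch unchanged. Tests with a smallest possible p above 0.05 could not change side. The CpGs were chosen for a gain in KO over WT, which fixed the sign of KO minus WT. KO minus HET and HET minus WT share its embryos. With litter means in place of embryos, KO of 30 minus 3 ppm was -9.80 points (exact p = 0.0286) and KO of 0.1 minus 3 ppm -0.427. WT of 30 minus 3 ppm was 10.08 (exact p = 0.1, the smallest possible). Over embryos the last was 8.25 without the 3 libraries. Litter means without the 3 libraries, chosen after seeing the data, gave -3.56, -0.427 and 8.44 points. Over embryos, KO of 30 minus 3 ppm had an unadjusted p under 0.05 without KO replicate 2 of 30 ppm (exact p = 0.0159). That fit keeps KO replicate 1, an embryo the study lists as HET. Leaving out 1 embryo at a time gave -14.2 to -4.22 for this difference, with -4.22 (exact p = 0.278) without KO replicate 1. It gave -1.43 to 1.38 for KO of 0.1 minus 3 ppm, whose sign turned without replicate 1 (-1.06), 3 (-0.528) or 5 (-0.756) of 3 ppm, or replicate 1 (-0.964) or 4 (-1.43) of 0.1 ppm. It gave 8.06 to 13.4 for WT of 30 minus 3 ppm, where 7 of 7 lost an unadjusted p under 0.05 because fewer embryos cannot reach it. For HET of 0.1 minus 3 ppm it gave -1.15 to 7.67, negative without HET replicate 3 of 0.1 ppm. For HET of 30 minus 3 ppm it gave 0.439 to 3.27, and for NTD minus normal KO 1.32 to 5.88. HET minus WT stayed between 6.87 and 9.81 points.

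Of tiles of the gene called, HET against WT on 3 ppm had 0 with a minimum of 20 points (0.0912% of all tiles). KO against HET on 0.1 ppm had 1 with a minimum of 20 points (2.6% of all tiles) and 1 with the shallowest library kept (7.46%). The share of all tiles called moves with the setting too, so nothing is read from these counts or from those that follow. KO against WT on 3 ppm had 1 with a coverage of 10, 1 with a minimum of 20 points and 1 with the litter as a replicate block, and on 0.1 ppm 2 without the 3 libraries, against 1 WT embryo. Leaving out 1 embryo gave 1 to 2 for KO against HET on 3 and 0.1 ppm and for KO against WT on 3 and 0.1 ppm, 0 to 1 for KO against WT on 30 ppm and 0 to 1 for WT of 30 against 3 ppm. Both of the last changed without WT replicate 1 of 30 ppm, with WT replicate 2, whose Tet1 level lay in the HET range, still in the group. There the exon 12 tile was 32.9 points and 13.8 points (quasi-binomial adjusted p = 9.4e-07). The cause of these changes was not tested. At the stretch, the litter block gave 7.23 points for HET minus WT and 41.7 for KO minus HET. No litter block could be fitted for HET against WT on 0.1 ppm or for NTD against normal KO. Depth limits single CpGs, with 10 to 37 reads at 97500344 in KO.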
